A study of Mus musculus with 3 samples.

Results

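The MYC network transcription factors examined here are 8 genes chosen by symbol, Myc, Mycn, Mycl, Max, Mnt, Mga, Mlx and Mxd4, out of 32285 genes listed for each library. All 8 symbols were found, each with 1 gene identifier. They were read in E14 mouse embryonic stem cells (129/Ola background) grown on gelatin in medium with foetal bovine serum and leukaemia inhibitory factor, and profiled by droplet single-cell RNA sequencing of the 3′ ends of polyadenylated RNA. The control cells received DMSO for 6 h, and the treated cells received 10 uM tubercidin, an adenosine analogue, for 3 h or for 6 h. Each condition is 1 library, so there is no estimate of replicate spread, no difference was tested, and every interval is an exact 95% interval that covers counting error alone.

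MYC, MYCN and MYCL are closely related transcription factors that bind DNA as a pair with MAX, mostly at the E-box sequence CACGTG, and recruit coactivators to genes of growth and biosynthesis. MNT and the MXD proteins compete for MAX and bring corepressors to the same sites, and MGA pairs with MAX inside a Polycomb complex, PRC1.6, that keeps germ cell genes silent. MLX stands in for MAX in a parallel branch that senses glucose and shares MNT and MXD4 as partners. In mouse embryonic stem cells Myc and Mycn can replace each other in large part, and leukaemia inhibitory factor helps to maintain Myc.

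The promoters are shown because the members bind the E-box themselves. RefSeq promoters (GRCm38.p6, from 250 bases before to 50 bases after the start) were matched by symbol for 7 of the 8 members. The E-box CACGTG, which reads the same on both strands, occurred in 4 of these 7, against 7.15% of all 32851 promoters of 300 bases. The windows below run 5′ to 3′ on the strand of the gene, with the E-box in capitals. Its first base lies at position -3 from the start in Max, -123 in Mnt, -40 in Mlx and -219 in Mxd4.
Max (chr12:76962216-76962281, minus strand): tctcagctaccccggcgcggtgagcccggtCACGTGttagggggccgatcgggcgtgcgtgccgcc
Mnt (chr11:74830771-74830836, plus strand): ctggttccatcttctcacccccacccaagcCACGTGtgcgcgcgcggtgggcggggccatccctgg
Mlx (chr11:101087220-101087285, plus strand): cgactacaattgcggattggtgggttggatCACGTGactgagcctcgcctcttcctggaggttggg
Mxd4 (chr5:34187894-34187959, minus strand): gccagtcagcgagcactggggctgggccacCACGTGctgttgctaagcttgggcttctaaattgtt
The promoters of Mycn, Mycl and Mga held no CACGTG in this window. The Mycn promoter is shown whole because Mycn, of the 5 members averaging 10 CPM or more, differed most from the control at 6 h. It held TTTGGCGC, 1 form of the sequence recognised by the E2F cell cycle factors, at 2 places (capitals, first bases at -183 and -168), and this motif, chosen after the sequence was seen and searched on both strands, occurred in 0.514% of all promoters.
Mycn (chr12:12941787-12942086, minus strand): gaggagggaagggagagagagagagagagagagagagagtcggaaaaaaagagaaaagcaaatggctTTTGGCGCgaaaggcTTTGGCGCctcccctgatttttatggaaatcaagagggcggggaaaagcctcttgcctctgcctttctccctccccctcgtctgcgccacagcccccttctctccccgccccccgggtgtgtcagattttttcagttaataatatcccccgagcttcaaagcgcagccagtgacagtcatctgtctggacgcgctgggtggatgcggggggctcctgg
A match describes letters and is neither a bound site nor a cause.

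The control had 2031 called cells, the 3 h library 2365 and the 6 h library 2926. The median cell held 48452, 11877 and 8004.5 UMIs (unique molecular identifiers, 1 for every RNA molecule captured), so levels are given per 1000000 UMIs of the library (CPM). Pairs of libraries shared 1 cell barcode each. The 9 stem cell markers, Pou5f1, Sox2, Nanog, Esrrb, Zfp42, Dppa5a, Tdh, Utf1 and Fgf4, had summed levels of 4626, 5287 and 3925 CPM in the control, 3 h and 6 h libraries, with none at 0. Dppa5a made up most of this sum, at 2549, 3555 and 2263 CPM. Single markers differed in direction: Sox2 was at 205, 80.6 and 81.1 CPM and Fgf4 at 85.9, 22.9 and 35.1 CPM, whereas Esrrb was at 102, 131 and 193 CPM and Pou5f1 at 137, 159 and 213 CPM. Markers of other identities were scarce: the 6 genes of the 2-cell-like state summed to 0.00953, 0 and 0.932 CPM, with 5, 6 and 2 of them at 0. The 7 primitive-endoderm-like markers (Gata4, Gata6, Sox17 and others) reached 8.22, 6.49 and 11.1 CPM, with 1 at 0 in the 6 h library. Fibroblast-like markers, 7 in number, reached 0.963, 1.37 and 2.19 CPM with 2 at 0 in each library. The 6 trophoblast-like markers reached 1.91, 1.61 and 1.78 CPM with 1 at 0 in the 6 h library. Their part in the results was not tested.

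The question was which members of the network differed after tubercidin. The 2 activators with substantial UMIs, Myc and Mycn, were lower in both treated libraries, Mycn stepwise and Myc almost as much at 3 h as at 6 h. The antagonist Mnt was higher at both times, Mga was close to the median gene at 3 h and higher at 6 h, and Mlx was lower at both times. The log2 ratios of Max and Mxd4 lay between -0.30 and -0.19, and Mycl had too few UMIs to show a difference. Levels were compared as log2 ratios of CPM + 1, and a gene counted as different where this ratio reached 2-fold. Of the 8 members 5 averaged 10 CPM or more across the libraries and entered that count with 7884 genes in all. At 3 h 0 of the 5 were at least 2-fold lower, against 5.54% of all 7884 genes, and 0 were at least 2-fold higher, against 0.888%. At 6 h 1 of the 5, Mycn, was at least 2-fold lower, against 4.41%, and 0 were higher, against 2.33%. Myc averaged 7.43 CPM over the libraries and so did not enter this count. With the minimum set at a mean of 1 CPM, chosen after seeing the data, 7 members were counted, of which Myc was at least 2-fold lower at 3 h, against 6.20% of 13587 genes, and Myc and Mycn at 6 h, against 5.11%. Between 6 h and 3 h 0 of the 5 were past 2-fold in either direction, against 0.165% lower and 1.64% higher. The median log2 ratio of the 5 members counted was -0.30 at 3 h and -0.30 at 6 h, against -0.27 and -0.12 for all 7884 genes. The median member at 3 h was thus near the median gene. Over all 8 members, including those below 10 CPM, the median was -0.29 at 3 h and -0.24 at 6 h.

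The direction of small ratios depended on the scaling of the libraries. Median-of-ratios factors shifted the median log2 ratio over all genes by 0.27 at 3 h, 0.12 at 6 h and -0.15 between 6 h and 3 h, and TMM factors by 0.26, 0.12 and -0.14. They changed the split of all genes past 2-fold from 437 lower and 70 higher to 142 and 161 at 3 h (TMM 151 and 152), from 348 and 184 to 242 and 241 at 6 h (TMM 247 and 237), and from 13 and 129 to 30 and 74 between 6 h and 3 h (TMM 29 and 76). Relative to the median of all genes, the log2 ratio at 3 h and at 6 h was -1.69 and -2.09 for Myc, -0.41 and -1.55 for Mycn, -0.47 and -0.58 for Mlx, and 0.93 and 0.42 for Mnt. For Mga it was -0.02 and 0.41, for Max 0.01 and -0.18, for Mxd4 -0.01 and -0.07, and for Mycl 0.22 and -0.01. Myc, Mycn and Mlx thus lay below the median gene at both times, Mnt lay above it at both times, and Mga lay above it at 6 h.

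**Figure D1:**
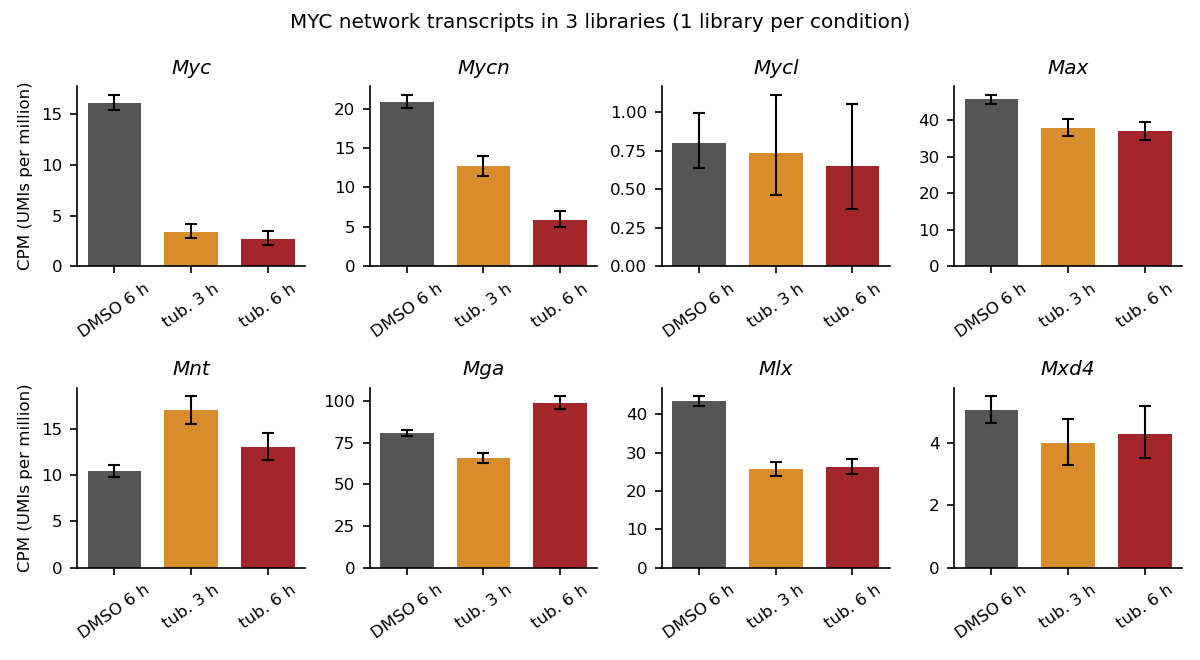
Level of each member in CPM (y axis, own scale per gene) in the DMSO control, tubercidin 3 h and tubercidin 6 h libraries; bars are the value of 1 library and error bars exact 95% Poisson intervals for counting error. Myc stands at 16.2, 3.41 and 2.71 CPM, Mycn at 20.9, 12.7 and 5.92 CPM, and Mnt is tallest at 3 h.

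Among the activators, Myc (ENSMUSG00000022346, chr15:61985391-61990374, plus strand in GENCODE M21) was at 16.2 CPM in DMSO, 3.41 CPM after 3 h of tubercidin and 2.71 CPM after 6 h. These levels rest on 1696, 102 and 67 UMIs. The control stood far above both treated libraries, whose Poisson intervals, 2.78 to 4.14 CPM at 3 h and 2.10 to 3.45 CPM at 6 h, overlapped. Myc was 4.74-fold lower after 3 h than with DMSO (counting interval 3.88 to 5.84) and 5.96-fold lower at 6 h (4.67 to 7.72). Its log2 ratio of CPM + 1 was -1.96 at 3 h and -2.21 at 6 h, and 0.127% of the 7884 genes had a lower ratio at each time. Between 6 h and 3 h the log2 ratio without a pseudocount was -0.33, with an interval from -0.80 to 0.13 that holds 0, so a further decrease was not detectable at this depth.

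Mycn (ENSMUSG00000037169, chr12:12936093-12941914, minus strand) was at 20.9 CPM in DMSO, 12.7 CPM after 3 h of tubercidin and 5.92 CPM after 6 h, from 2195, 379 and 146 UMIs. The 3 libraries were in descending order with no overlap of their Poisson intervals. Mycn was 1.65-fold lower at 3 h (1.48 to 1.85), 3.54-fold lower at 6 h (2.99 to 4.21), and 2.14-fold lower at 6 h than at 3 h (1.77 to 2.61). At 3 h 18.0% of all genes had a lower log2 ratio than Mycn, and at 6 h 0.406%. From 3 h to 6 h this was 0.203%, so Mycn was among the genes with the lowest ratios in that interval, while the ratio of CPM + 1, -0.98, stayed just short of 2-fold. Under both median-of-ratios and TMM scaling the same value was -1.12, past 2-fold.

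Mycl, the third paralog (ENSMUSG00000028654, chr4:122995652-123002485, plus strand), was scarcely detected, at 0.801, 0.736 and 0.648 CPM. Its 84, 22 and 16 UMIs gave intervals that held 0 in each of the 3 comparisons, from -0.87 to 0.57 on the log2 scale at 3 h and from -1.18 to 0.48 at 6 h. A change of up to these bounds was therefore not detectable.

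The summed level of Myc, Mycn and Mycl was 37.9 CPM in the control (36.7 to 39.1), 16.8 CPM at 3 h (15.4 to 18.4) and 9.28 CPM at 6 h (8.12 to 10.6). The sum was lower in each successive library, with no overlap of the intervals. Within this sum Myc contributed 42.7% of the UMIs in DMSO (exact binomial interval 41.1 to 44.2%), 20.3% after 3 h (16.8 to 24.1%) and 29.3% at 6 h (23.5 to 35.6%). Mycn contributed 55.2% (53.7 to 56.8%), 75.3% (71.3 to 79.1%) and 63.8% (57.2 to 70.0%). These shares do not depend on how libraries are scaled and are read between libraries, not between genes. Mycn thus took a larger share at 3 h, and the 6 h library lay between the other libraries.

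Max, the common partner (ENSMUSG00000059436, chr12:76937269-76962201, minus strand), was at 45.7, 37.9 and 37.0 CPM in the control, 3 h and 6 h, from 4791, 1134 and 914 UMIs. The treated libraries overlapped each other and lay below the control. Its log2 ratio without a pseudocount was -0.27 at 3 h (-0.36 to -0.17) and -0.30 at 6 h (-0.41 to -0.20). The 3 h value was close to that of the median gene, with 51.1% of all genes lower, and under median-of-ratios scaling the 3 h ratio of CPM + 1 was 0.01. No direction is therefore given for Max at 3 h.

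Among the antagonists, Mnt (ENSMUSG00000000282, chr11:74830920-74845725, plus strand) was at 10.4 CPM in DMSO, 17.0 CPM after 3 h of tubercidin and 13.0 CPM after 6 h, from 1092, 507 and 321 UMIs. The 3 h library was highest, and no pair of intervals overlapped. Mnt was 1.63-fold higher at 3 h, a log2 ratio of 0.70 (0.55 to 0.86), and 1.25-fold higher at 6 h, a log2 ratio of 0.32 (0.14 to 0.50). At 3 h 2.59% of all genes had a higher ratio. Counted per cell, without scaling to the library, Mnt was lower after tubercidin, at 0.538, 0.214 and 0.110 UMIs. Mettl16, which ends 2395 bp upstream of Mnt on the same strand, was at 155, 161 and 189 CPM. Its part in the Mnt counts was not tested.

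Mga (ENSMUSG00000033943, chr2:119897228-119969581, plus strand) encodes a large factor with a T-box DNA-binding domain besides the one that pairs with MAX. It was at 80.8, 65.6 and 98.98 CPM in the control, 3 h and 6 h, from 8475, 1962 and 2443 UMIs. The 6 h library was highest and the 3 h library lowest, with no overlap. The log2 ratio without a pseudocount was -0.30 at 3 h (-0.37 to -0.23), 0.29 at 6 h (0.23 to 0.36) and 0.59 between 6 h and 3 h (0.51 to 0.68). At 3 h 47.7% of all genes had a lower ratio than Mga, whereas from 3 h to 6 h 8.46% of all genes had a higher ratio. Counted per cell, Mga was lower at both times, at 4.17, 0.830 and 0.835 UMIs. Mapkbp1, which starts 3118 bp past the end of Mga on the same strand, was at 10.5, 9.94 and 14.1 CPM, and its part in the Mga counts was not tested.

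Mxd4 (ENSMUSG00000037235, chr5:34173883-34187720, minus strand), a small MAX-binding repressor found in differentiating cells, was at 5.05, 3.98 and 4.29 CPM from 530, 119 and 106 UMIs. The treated libraries overlapped each other. The interval of its log2 ratio at 3 h, -0.64 to -0.05, lay below 0, and that at 6 h, -0.55 to 0.07, held 0. Its ratio of CPM + 1, -0.28 at 3 h, exceeded that of 49.1% of all genes. Haus3 (49.3, 20.2 and 16.4 CPM), Poln (6.18, 9.94 and 12.2 CPM) and Zfyve28 (19.3, 12.7 and 20.5 CPM) lie within 10 kb on the same strand, and the antisense gene Gm42846 had at most 1 UMI in a library. Their part in the Mxd4 counts was not tested.

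Mlx (ENSMUSG00000017801, chr11:101087277-101092207, plus strand), the centre of the glucose-sensing branch, was at 43.5 CPM in DMSO, 25.7 CPM after 3 h of tubercidin and 26.3 CPM after 6 h, from 4561, 767 and 649 UMIs. Both treated libraries lay below the control and overlapped each other. Mlx was 1.69-fold lower at 3 h (1.57 to 1.83) and 1.65-fold lower at 6 h (1.52 to 1.80). Of all genes 14.9% had a lower ratio at 3 h and 11.9% at 6 h. Psmc3ip overlaps Mlx on the opposite strand and was at 29.7, 26.8 and 25.4 CPM. Whether counting used strand is not given in the sources used here, so reads of the overlap cannot be told apart. Upstream on the strand of Mlx lie Coasy, 658 bp away, at 20.2, 17.3 and 19.3 CPM, Hsd17b1, at 1.35, 1.14 and 0.446 CPM, and Naglu, at 1.31, 1.34 and 0.648 CPM.

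**Figure D2:**
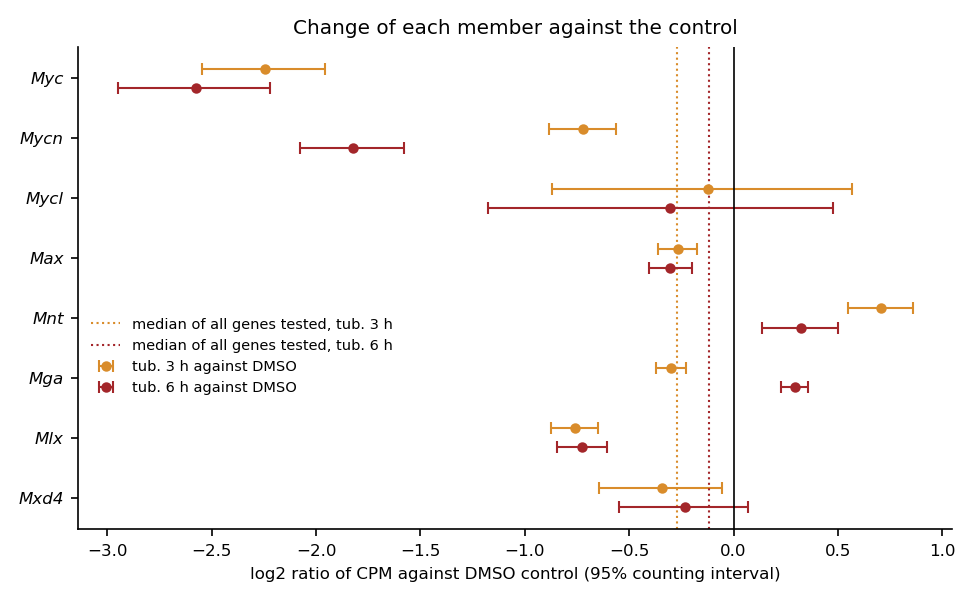
Log2 ratio of CPM without a pseudocount (x axis) of each member (y axis) at tubercidin 3 h and 6 h against the DMSO control; points are single libraries, bars exact 95% counting intervals and dotted lines the median log2 ratio of CPM + 1 over all genes tested. Myc lies at -2.24 and -2.57, Mycn at -0.72 and -1.82, and Mnt at 0.70 and 0.32.

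A ratio of UMIs between members needs no scaling, so each member was also set against Max. For every 100 UMIs of Max there were 35.4 UMIs of Myc with DMSO, 8.99 after 3 h and 7.33 after 6 h. The log2 change of this ratio was -1.98 at 3 h (-2.29 to -1.67) and -2.27 at 6 h (-2.66 to -1.90). For Mycn there were 45.8, 33.4 and 15.97 UMIs per 100 of Max, a log2 change of -0.46 at 3 h (-0.64 to -0.27) and -1.52 at 6 h (-1.79 to -1.26). Both activators were thus lower relative to their partner.

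Mnt stood the other way relative to Max. It had 22.8 UMIs per 100 of Max with DMSO, 44.7 after 3 h and 35.1 after 6 h, a log2 change of 0.97 (0.79 to 1.15) and 0.62 (0.41 to 0.83). Mga had 177, 173 and 267 UMIs per 100 of Max, with a log2 change of -0.03 at 3 h, whose interval of -0.15 to 0.09 held 0, and of 0.60 at 6 h (0.47 to 0.72). For Mlx the change was -0.49 at 3 h (-0.64 to -0.35) and -0.42 at 6 h (-0.58 to -0.26). The intervals of Mxd4 and Mycl held 0 at both times. Per Max UMI the libraries therefore held less Myc, Mycn and Mlx and more Mnt at both times, and more Mga at 6 h.

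**Figure D3:**
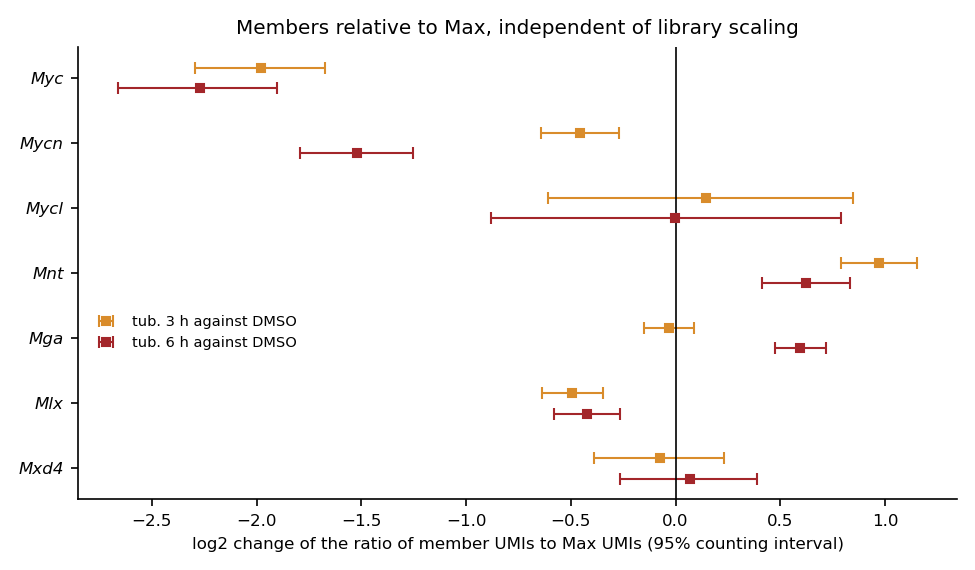
Log2 change of the ratio of each member's UMIs to Max UMIs (x axis) at tubercidin 3 h and 6 h against the DMSO control, by member (y axis); points are single libraries and bars exact 95% counting intervals. Myc, at -1.98 and -2.27, and Mnt, at 0.97 and 0.62, lie on opposite sides of 0.

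The lower level of Myc and Mycn was also seen as a smaller share of cells with a UMI at equal depth. Cells were thinned to 4000 UMIs, and 0, 122 and 284 cells of the control, 3 h and 6 h libraries were too shallow for it. Myc was then found in 6.45% of DMSO cells (5.42 to 7.61%), in 1.07% after 3 h (0.687 to 1.59%) and in 1.21% after 6 h (0.830 to 1.71%). The treated shares overlapped, and no order is read between them. Mycn was found in 7.88% (6.74 to 9.14%), 4.77% (3.93 to 5.74%) and 2.80% (2.21 to 3.50%) of cells, with no overlap. Mnt was found in 4.14% (3.31 to 5.10%), 6.46% (5.48 to 7.56%) and 5.37% (4.55 to 6.30%), where the 6 h share overlapped the control. With another random seed the Mnt share was 3.35% in the control (2.61 to 4.23%), 6.78% at 3 h and 4.39% at 6 h (3.64 to 5.24%). Mga was found in 27.2% (25.3 to 29.2%), 22.2% (20.5 to 24.0%) and 30.2% (28.4 to 32.0%). Without thinning the shares were 50.02%, 4.14% and 2.08% for Myc, 56.9%, 13.8% and 4.65% for Mycn, 38.9%, 18.7% and 10.5% for Mnt and 91.6%, 50.3% and 49.0% for Mga, which also carry the difference in depth.

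These cultures hold no cell type known to lack the members, so free RNA was read from 10000 barcodes per library with too few UMIs to be cells, at medians of 343, 210 and 138 UMIs. Myc was found in 0.380%, 0.0300% and 0.0100% of them, and Mycn in 0.710%, 0.190% and 0.120%. The level of Myc there was 10.9 CPM in the control (7.75 to 15.0), 1.40 CPM at 3 h (0.289 to 4.10) and 0.708 CPM at 6 h (0.0179 to 3.94). Mycn stood at 20.5 CPM, 9.36 CPM and 8.49 CPM (4.39 to 14.8), and the last interval holds the 5.92 CPM of called cells at 6 h. For both genes the control had the highest level in free RNA, and the treated libraries overlapped each other. Mnt in free RNA was at 6.55 CPM at 3 h (3.58 to 11.0), below the 17.0 CPM of the cells, and Mga at 37.4 CPM at 3 h (29.7 to 46.6), below the 65.6 CPM of the cells. In the control and at 6 h Mnt in free RNA was at 10.1 CPM (7.02 to 14.0) and 13.4 CPM (8.09 to 21.0), and all 3 intervals overlapped. Mga there was at 82.4 CPM in the control (73.1 to 92.5) and 81.4 CPM at 6 h (67.2 to 97.7), which overlapped each other. Max was also lower in free RNA than in cells at 3 h, at 24.8 against 37.9 CPM, while its intervals in the control and at 6 h held the level of the cells. Mlx was lower in free RNA in every library, at 25.1, 16.8 and 17.0 CPM against 43.5, 25.7 and 26.3 CPM in cells. Myc in free RNA of the control was also below the 16.2 CPM of the cells.

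In the control 1016 of 2031 cells had a Myc UMI and 1155 a Mycn UMI, and 605 had both. The share with both was 29.8% (27.8 to 31.8%), and the product of the separate shares is 28.4%. At 3 h 20 cells had both, 0.846% (0.517 to 1.30%) against a product of 0.571%, and at 6 h 8 cells had both, 0.273% (0.118 to 0.538%) against 0.0969%. The share with both was thus above the product in each library without thinning. In cells thinned to 4000 UMIs 9, 2 and 2 cells had both, and the control share of 0.443% (0.203 to 0.840%) stood against a product of 0.508%. Whether Myc and Mycn occur together in cells was not tested, and the unthinned shares also carry the spread of depth among cells.

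The lower level of Myc was found in each depth group of the treated libraries. With the cells of each library split into 3 equal groups by total UMIs, the medians were 37199, 48452 and 65438 UMIs with DMSO, 7734, 11879 and 17331 after 3 h and 5232.5, 8005 and 11322 after 6 h. Myc was at 17.4, 16.6 and 15.2 CPM in the lower, middle and upper group of the control, at 3.75, 3.19 and 3.42 CPM at 3 h, and at 2.52, 3.72 and 2.15 CPM at 6 h. Each control group lay above each treated group with no overlap of intervals. The groups are ranks within a library, and even the lower control group had a higher median depth than the upper treated groups. Treatment and depth can therefore not be told apart by this split. Mycn was at 19.8, 19.0 and 22.8 CPM with DMSO, 14.3, 10.2 and 13.6 CPM after 3 h and 7.13, 5.64 and 5.62 CPM after 6 h. All control groups lay above all 6 h groups, while the lower 3 h group overlapped the middle control group. The upper control group of Mycn lay above the lower by 0.20 on the log2 scale (0.05 to 0.36), whereas for Myc this difference was -0.19 (-0.37 to -0.01).

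Mnt was at 9.76, 9.81 and 11.1 CPM in the lower, middle and upper control groups, 16.4, 15.6 and 18.0 CPM at 3 h and 14.9, 13.8 and 11.7 CPM at 6 h. The 3 h groups lay above all control groups without overlap, while each 6 h group overlapped the upper control group. Mga was at 69.0, 84.5 and 84.0 CPM with DMSO, 73.8, 62.4 and 64.6 CPM after 3 h and 94.8, 87.4 and 108 CPM after 6 h. All 3 h groups of Mga overlapped the lower control group (65.7 to 72.4 CPM) and lay below the middle and upper control groups without overlap. The lower control group had a higher median depth than every 3 h group, so depth and treatment are not told apart here. In treated cells of matched depth, between 6000 and 12000 UMIs (942 cells at 3 h and 1871 at 6 h, a choice made after seeing the data), Mycn was at 10.9 CPM at 3 h and 5.73 CPM at 6 h, Mga at 57.2 and 94.2 CPM, and Mnt at 14.4 and 13.1 CPM. The difference of Mycn and Mga between the time points was thus also present at matched depth. That of Mnt was smaller there, with a log2 ratio of CPM + 1 for 6 h against 3 h of -0.12, against -0.36 over all called cells. Mitochondrial genes took 3.29%, 2.90% and 2.83% of UMIs in the lower, middle and upper control groups, 4.66%, 3.26% and 3.08% at 3 h and 3.39%, 2.83% and 2.69% at 6 h, and their part in these levels was not tested.

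**Figure D4:**
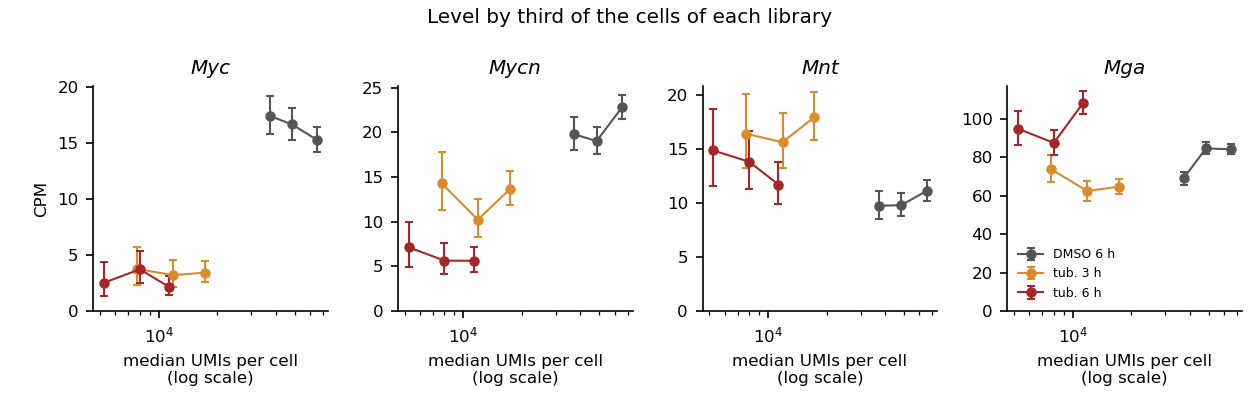
Level in CPM (y axis) of Myc, Mycn, Mnt and Mga in the lower, middle and upper depth group of the cells of each library, placed at their median UMIs per cell (x axis, log scale); bars are exact 95% Poisson intervals. The 3 control points of Myc, between 15.2 and 17.4 CPM, lie above all treated points.

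The remaining genes of the network gave mixed differences. Of 7 such genes 3 had a mean of at least 10 CPM and 0 of these were past 2-fold in any comparison. Of all genes 5.54% were lower and 0.888% higher at 3 h, and 4.41% and 2.33% at 6 h. Between 6 h and 3 h these shares were 0.165% and 1.64%. Bmyc, a shorter relative of Myc, was at 29.7, 22.7 and 14.6 CPM, in descending order. Mxi1, an MXD repressor, was at 21.2, 19.2 and 23.1 CPM, and Mlxip, which encodes the glucose sensor MondoA, at 14.5, 8.10 and 14.6 CPM. Below that minimum Mxd3, an MXD repressor of dividing cells, was at 9.19, 3.75 and 4.13 CPM. Its log2 ratio of CPM + 1 was -1.10 at 3 h, past 2-fold, and -0.99 at 6 h. Mxd1 was at 5.83, 6.49 and 7.37 CPM and Mlxipl at 1.92, 1.34 and 1.17 CPM. No Mycs UMI was counted in any library, which allows up to 0.0286, 0.100 and 0.122 CPM.

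Coactivators recruited by MYC lay above the median gene in 12 of 14 cases at 3 h. All 14 listed genes had a mean of at least 10 CPM, and at 3 h 12 of them and at 6 h 11 had a ratio above the median of all genes. Their median log2 ratio was 0.19 at both times, against -0.27 and -0.12. At each time 1 was at least 2-fold higher and 0 lower, against 0.888% higher and 5.54% lower of all genes at 3 h and 2.33% and 4.41% at 6 h. This was Ppp1r10, a subunit that directs protein phosphatase 1 in the nucleus, at 51.7, 131 and 149 CPM. Trrap, the scaffold of histone acetyltransferase complexes, was at 36.1, 48.1 and 60.7 CPM and Ep300, a histone acetyltransferase, at 69.5, 44.7 and 62.4 CPM. Ruvbl2, an ATPase of chromatin complexes, was at 120, 101 and 80.7 CPM. Bptf, a chromatin remodelling subunit, was at 146, 120 and 161 CPM, and Kat5, another acetyltransferase, at 13.2, 13.2 and 11.3 CPM.

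Of 8 corepressor genes of MXD and MNT, all with a mean of at least 10 CPM, 1 was at least 2-fold lower at 3 h, against 5.54% of all genes, and 2 at 6 h, against 4.41%, with 0 higher. Their medians were -0.34 and -0.15. Sap30, a subunit of the SIN3 complex, was at 87.2, 32.0 and 38.0 CPM, and Sap18, another SIN3-associated protein, at 65.0, 42.6 and 28.5 CPM. Ncor1, a nuclear receptor corepressor, was at 336, 220 and 300.2 CPM, Hdac1, a histone deacetylase, at 142, 137 and 129 CPM, and Sin3a, the scaffold of the complex, at 81.0, 61.5 and 81.8 CPM. The partners of MGA in PRC1.6 held 0 genes past 2-fold among the 9 of 12 with enough UMIs. This stands against 5.54% lower and 0.888% higher of all genes at 3 h, and 4.41% and 2.33% at 6 h. Medians of the 9 partners were -0.12 and -0.14. Of these genes Hdac1 and Hdac2 are also corepressors, and Wdr5 is also a coactivator, in the lists above. L3mbtl2, a reader of histone methylation, was at 60.9, 63.9 and 80.7 CPM, Wdr5 at 76.6, 101 and 84.3 CPM, Cbx3 at 271, 250.3 and 316 CPM, Rybp at 94.4, 63.8 and 84.8 CPM, Hdac2 at 94.5, 76.8 and 72.2 CPM and Pcgf6 at 69.0, 61.8 and 53.2 CPM. Of 12 listed germ cell genes of this complex 4 averaged 10 CPM or more, so the genes counted were not silent in these cells. Of these 4, 0 were past 2-fold, against the same shares of all genes, and a count of 0 among 4 says little. Their median log2 ratio was -0.29 at 3 h and -0.32 at 6 h, against -0.27 and -0.12 for all genes. Among them Zcwpw1 was at 62.1, 54.2 and 74.7 CPM and Sycp3, part of the meiotic chromosome axis, at 19.5, 12.1 and 12.6 CPM. Stag3, a meiotic cohesin subunit, was at 27.2, 22.3 and 20.8 CPM and Ddx4, a germ cell helicase, at 14.4, 11.4 and 11.9 CPM.

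Genes that control the stability of MYC protein included 2 of 12 at least 2-fold lower at 3 h, against 5.54% of all genes, and 0 at 6 h, against 4.41%, with 0 higher. Skp2, a ubiquitin ligase subunit, was at 41.6, 17.6 and 21.6 CPM, and Cip2a, which shields MYC from dephosphorylation, at 45.1, 19.2 and 22.6 CPM. Gsk3a, a kinase of MYC, was at 29.4, 29.8 and 36.6 CPM.

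Growth and biosynthesis genes known to be activated by MYC had medians near that of all genes. Of the 32 listed 30 had enough UMIs, and 0 were past 2-fold in any of the 3 comparisons. Of all genes 5.54% were lower and 0.888% higher at 3 h, and 4.41% and 2.33% at 6 h. Between 6 h and 3 h these shares were 0.165% and 1.64%. With shares this small a count of 0 among 30 genes says little. Their median log2 ratio was -0.19 at 3 h and -0.17 at 6 h, against -0.27 and -0.12 for all genes, and 18 and 13 of the 30 lay above the median gene. Fbl, a nucleolar methyltransferase, was at 257, 455 and 380 CPM, and Srm, which makes spermidine, at 177, 247 and 243 CPM. Shmt2, a mitochondrial serine enzyme, was at 103, 155 and 129 CPM, and Nop56, a nucleolar protein, at 327, 245 and 224 CPM. Ddx18, a helicase of ribosome assembly, was at 289, 153 and 235 CPM and Tfrc, the transferrin receptor, at 126, 67.3 and 75.2 CPM. The range over the 30 genes was -0.92 to 0.82 at 3 h and -0.74 to 0.56 at 6 h.

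Of 4 genes activated by MLX and MondoA, 3 had enough UMIs, and all 3 lay below the median gene at both times. Txnip, which restrains glucose uptake, was at 57.5, 28.2 and 33.1 CPM, and it was the 1 gene of these 3 at least 2-fold lower at 3 h, against 5.54% of all genes. Arrdc4, its relative, was at 40.7, 24.4 and 31.2 CPM, and Hk2, a hexokinase, at 272, 139 and 217 CPM. Pfkfb3, a regulator of glycolysis below the minimum, was at 2.33, 3.25 and 4.01 CPM.

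**Figure D5:**
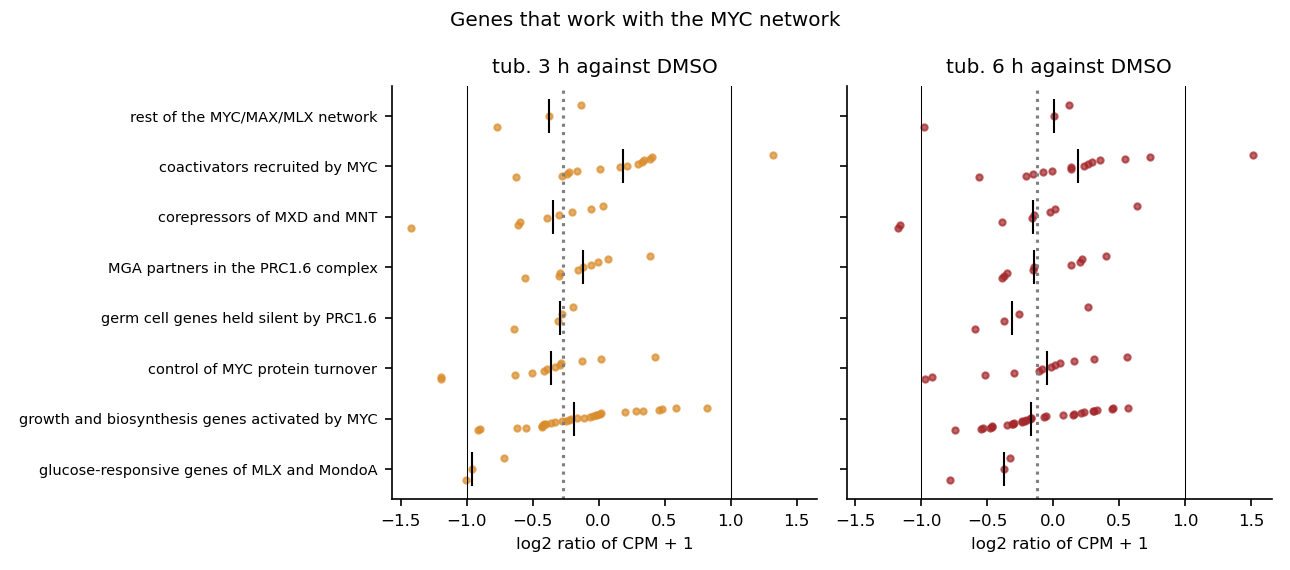
Log2 ratio of CPM + 1 (x axis) at tubercidin 3 h (left) and 6 h (right) against the DMSO control for genes of 8 lists (y axis) that average 10 CPM or more; points are genes, short black bars list medians, dotted lines the median of all genes tested and thin lines 2-fold. No gene of the 30 activated by MYC passes 2-fold, and Ppp1r10 lies alone past 2-fold among the coactivators. Of all genes tested 5.54% lie at least 2-fold lower and 0.888% higher at 3 h, and 4.41% and 2.33% at 6 h.

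Genes with the pattern most like each member were ranked by the distance between their pairs of log2 ratios at 3 h and 6 h, over 3 libraries and 7585 other named genes averaging 10 CPM or more. Nearest to Mycn were Gnb2 (distance 0.05), at 95.6, 60.8 and 30.3 CPM, Fzd5 (0.08), at 26.4, 15.3 and 7.90 CPM, and Ubb (0.15), at 1013, 684 and 339 CPM. Gnb2 is a G protein subunit, Fzd5 a WNT receptor and Ubb a polyubiquitin gene. For Mnt the nearest were Aplp1, Tuba1a and Psma7, at distances of 0.029, 0.030 and 0.041. For Mga they were Klhdc3, Mprip and Chchd6, at 0.0083, 0.014 and 0.015. For Max they were Rmnd1, Hsf1 and Snx12, at 0.0068, 0.0086 and 0.011, and for Mlx Necap1, Chic1 and Gtf2a2, at 0.0047, 0.0087 and 0.014. With 3 libraries such a likeness rests on 2 ratios per gene.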

How the data were processed

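Polyadenylated RNA of single cells was measured in 3 libraries, 1 per condition. The authors deposited unnormalised UMI counts for each gene in each barcode, from Cell Ranger 7.1.0, per the file headers, aligned to mm10, per the submitters' processing notes. Annotation version, strand use and the handling of intronic reads are not given in the sources used here. The members and lists were chosen with earlier results of these data known. Named were all 8 members, the 2 genes at either end of each list, all genes of lists of up to 7, the 3 nearest patterns and genes within 10 kb of a member on the same strand or overlapping it. Some genes under this rule are not reported here.

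A barcode was called a cell when its UMIs reached the 99th percentile of the 3000 largest barcodes divided by 10, with 500 genes or more and no more than 20% of UMIs mitochondrial. This gave minimums of 11034, 2961 and 2107 UMIs. Doublets were kept and no clusters were made. Counts were summed per library (104892739, 29892000 and 24681924 UMIs) and scaled to CPM. Intervals are exact conditional binomial (ratios), Poisson (levels) or Clopper-Pearson (shares). Ratios to Max used conditional odds ratios. Free RNA came from barcodes ranked after 5000 and up to 15000. The steps were tested on simulated data. Gene positions are from GENCODE M21 (GRCm38, the assembly of mm10), which held 32235 of 32285 identifiers, and promoters from RefSeq. Alternatives covered cell calling, scaling, free RNA, cell weights, pseudocount, filter and thinning. Intervals used scipy 1.17.1 in Python 3.11.15 (with pandas 2.3.3 and numpy 2.4.6), figures matplotlib 3.10.9, and TMM factors edgeR 4.0.16 in R 4.3.3.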

Additional observations from a re-analysis of the deposited data

Results flagged for a closer look

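Mga drew attention because it lay on opposite sides of the control at the 2 times, beyond counting error. Its log2 ratio of CPM + 1 was -0.30 at 3 h and 0.29 at 6 h. The difference between the times was not tested, and both ratios share the control library. Relative to the median of all genes the values were -0.02 and 0.41, and under median-of-ratios scaling -0.02 and 0.42 against the control.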

How the results depend on the processing

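With 1 library per condition no replicate could be left out, and no paired analysis was possible because each group holds 1 sample. The number of members at least 2-fold lower at 3 h was 0 and became 5 under UMIs per cell, where 7803 of all 7884 genes were. The number was 1 with no filter on low values or a mean of at least 1 CPM, against 855 of 32285 and 843 of 13587 genes. At 6 h it was 1, against 348 of all 7884 genes, and became 5 under UMIs per cell, against 7825. It was 2 with no filter or the minimum lowered to 1 CPM, against 707 of 32285 and 694 of 13587. With the minimum raised to 50 CPM, which left 1 member to count, it was 0, against 75 of 3102. Between 6 h and 3 h the number of members was 0, against 13 of all 7884 genes. In brackets are the genes at least 2-fold lower among all 7884 under other settings. The number became 1 with the cell minimum 2 times lower (14), median-of-ratios factors (30), TMM factors (29) and UMIs per cell (272). It was also 1 with free RNA subtracted (23), equal weight for each cell (12) and a pseudocount of 0.1 CPM (20). The cause of the differences between scalings was not tested. Over the alternatives run other than UMIs per cell the log2 ratio of Myc ranged from -2.21 to -1.72 at 3 h and from -2.53 to -2.09 at 6 h, and that of Mycn from -0.73 to -0.42 and from -1.81 to -1.54. Mnt ranged from 0.62 to 0.91 and from 0.25 to 0.42. UMIs per cell, where a library's depth enters every ratio, gave -1.26 and -2.12 for Mnt and -2.31 and -2.30 for Mga. Shares of cells changed with the thinning depth by construction. Levels under about 3 UMIs per library could not be detected.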

Other observations

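Median log2 ratios of the genes tested differed with the length of the gene from start to end. From 3 h to 6 h the median was -0.0084 in the 2628 genes with the shortest span, 0.12 in the next 2628 and 0.29 in the 2628 with the longest span, from 46.0 kb. Mga spans 72354 bp and lay at 0.59, above the median of its group. Of the members tested Mycn, Mlx and Mnt, with spans of 5822, 4931 and 14806 bp, belong to the shortest group, whose median against the control was -0.09 at 3 h and -0.08 at 6 h. Mycn, at -0.68 and -1.66, and Mlx, at -0.74 and -0.70, lay below these medians, and Mnt, at 0.65 and 0.30, above them.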
